A study of Mus musculus with 6 samples.

Results

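The miRNAs miR-150-5p, miR-155-5p and miR-342-3p (mmu-miR-150-5p, mmu-miR-155-5p and mmu-miR-342-3p in the files), all known from lymphocytes, were followed in heart muscle of mice given sunitinib, a tyrosine kinase inhibitor used against cancer, or vehicle. They were picked by name as the 3 array entries whose miRNA name equals one of these, out of 1881 mouse miRNAs on the array. The 6 samples were left ventricles of male C57BL/6 mice, 3 labelled control and 3 labelled sunitinib, rinsed in saline after collection per the labels. From each sample 200 ng of total RNA was labelled with Cy3 and put on its own Agilent miRNA array. Neither the dose and duration of treatment nor the age of the mice is stated in the sources used here. The labels do not say whether the samples are separate animals, and a p-value here speaks of sample-to-sample spread only, part of which may be technical. The RNA came from whole tissue, in which fewer cells of a type and less RNA per cell cannot be told apart.

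A miRNA is cut from a hairpin precursor and guides a repressor complex to messenger RNAs, mainly through its seed, bases 2 to 8 from its 5′ end. miR-150 is abundant in mature resting B and T cells, where it represses the transcription factor Myb. miR-155 is processed from the noncoding transcript of Mir155hg (also called Bic) and is induced when B cells, T cells and macrophages are activated. miR-342 comes from within Evl, a gene for an actin regulator, and is expressed in lymphocytes and in other cells. In a healthy ventricle leukocytes are a minority of cells beside cardiomyocytes, endothelium and fibroblasts. The level of these miRNAs can reflect resident and blood-borne leukocytes as well as expression in other heart cells, which whole tissue cannot tell apart.

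In the RefSeq tables of build GRCm38.p6, Mir150 lies on chromosome 7 and overlaps no other gene. Mir155 overlaps Mir155hg on chromosome 16 and Mir342 overlaps Evl on chromosome 12. The RefSeq sequence table matched 2 of the 3 miRNAs. Their mature forms are shown 5′ to 3′ with the seed in capitals, beside 3 further blood-cell miRNAs, because the results set these side by side.
miR-155-5p: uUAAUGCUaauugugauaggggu
miR-342-3p: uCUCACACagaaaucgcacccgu
miR-223-3p: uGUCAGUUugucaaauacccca
miR-142a-3p: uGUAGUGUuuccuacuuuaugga
miR-451a: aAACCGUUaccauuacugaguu
All 5 seeds differ. Among 1679 mature mouse miRNAs in that table, 0 others share the seed of miR-155-5p and 0 share that of miR-342-3p. The hairpins from which they are cut are shown with both mature arms in capitals, at chr16:84714140-84714204 (plus strand) for Mir155 and chr12:108658620-108658718 (plus strand) for Mir342, both GRCm38.p6. The arm that was measured above background is the first one in Mir155 and the second one in Mir342.
Mir155: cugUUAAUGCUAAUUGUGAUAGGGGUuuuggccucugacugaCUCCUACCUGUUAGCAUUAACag
Mir342: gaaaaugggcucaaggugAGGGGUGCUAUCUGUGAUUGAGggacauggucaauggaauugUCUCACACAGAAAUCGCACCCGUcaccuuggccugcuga

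Each of the 3 miRNAs had 2 probes of 15 spots each, so 30 spots per array. The probes are DNA complementary to the far end of the miRNA, and the 2 probes of a miRNA differ by 1 base at the probe's 3′ end, shown in capitals.
A_54_P2337 (miR-155-5p): acccctatcacaattagC
A_54_P2336 (miR-155-5p): acccctatcacaattag
A_54_P2574 (miR-342-3p): acgggtgcgatttctgT
A_54_P2573 (miR-342-3p): acgggtgcgatttctg
The longer probe of miR-155-5p pairs with bases 6 to 23 of the miRNA and the shorter with bases 7 to 23. For miR-342-3p these are bases 7 to 23 and 8 to 23. The probes thus read at most 3 of the seed's bases, and each matched exactly 1 mature miRNA of the RefSeq table over its whole length. The probes of miR-150-5p have 16 and 15 bases and were placed by the array files on chromosome 7, 52377139 to 52377153 and 52377140 to 52377153 (mm9). Those of miR-155-5p were placed on chromosome 16, 84714394 to 84714410 and 84714395 to 84714410 (mm9), and those of miR-342-3p are unmapped in the files.

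All 6 probes were detected on all 6 arrays, with 100% of their usable spots passing the scanner software's test. Levels below are log2 of the background-subtracted signal after scaling each array to the same 75th percentile, from the brighter probe of each miRNA, and a difference is the sunitinib mean minus the control mean. The 3 miRNAs were among 237 that passed a filter on dim miRNAs, which asked for detection well above background on every array of the control or the sunitinib group; each of the 3 passed in both groups. Of these 237, 8 passed a limma adjusted p of 0.05 (3.38%; 1.69% higher and 1.69% lower). None of the 3 miRNAs passed: limma called 0 of 3. An unadjusted limma p under 0.05 was reached by 1 of 3, miR-155-5p. Among all tested miRNAs 10.5% reached it with sunitinib higher and 8.44% with sunitinib lower. The groups did not overlap for 1 of 3 miRNAs, again miR-155-5p, beside 27.4% of all tested miRNAs (18.1% with sunitinib higher, 9.28% with sunitinib lower). The median difference of the 3 was 0.15 and that of all tested miRNAs 0.02.

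**Figure D1:**
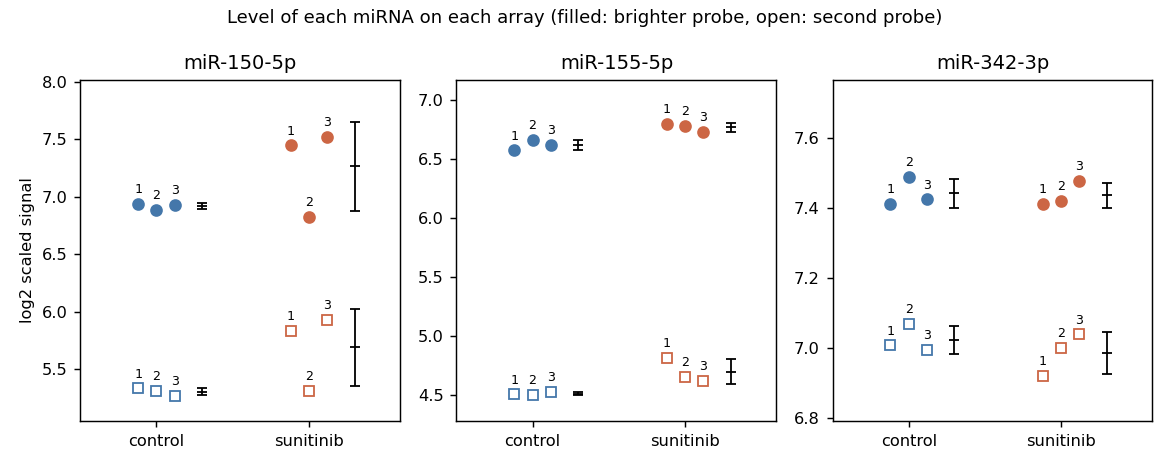
Log2 scaled signal (y axis) of miR-150-5p, miR-155-5p and miR-342-3p on each array, with control arrays in blue and sunitinib arrays in orange, numbered by replicate. Filled circles are the brighter probe, open squares the second probe, and black bars mean ± SD (n = 3). miR-150-5p lies at 7.45 and 7.52 on sunitinib arrays 1 and 3 and at 6.82 on array 2, on both probes in the same order, while miR-155-5p is slightly higher on all 3 sunitinib arrays and miR-342-3p overlaps. The y axes differ between panels.

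miR-150-5p, the resting-lymphocyte miRNA, had log2 levels of 6.94, 6.89 and 6.92 in control replicates 1 to 3 and of 7.45, 6.82 and 7.52 in sunitinib replicates 1 to 3. Sunitinib replicates 1 and 3 lay above every control array, and sunitinib replicate 2 lay below every control array, so the groups overlapped. In linear units the scaled signal was 123, 118 and 122 in control and 175, 114 and 184 in sunitinib. The control mean was 6.92 ± 0.026 and the sunitinib mean 7.26 ± 0.38 (SD, n = 3 each). The difference of 0.35 (SE 0.18, 95% interval -0.10 to 0.79), a ratio of 1.27, did not pass (limma adjusted p = 0.359). An exact two-sided permutation test gave p = 0.4, where 3 against 3 samples allow no p below 0.1.

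The spread of miR-150-5p lay almost wholly in the sunitinib group. The control arrays spanned 0.05 on the log2 scale and the sunitinib arrays 0.70. Its pooled within-group SD of 0.27 was larger than that of 88.6% of tested miRNAs. On each array the SE of the mean over the spots of its brighter probe was at most 0.04, which covers the reading of spots and not the labelling or hybridisation of an array. The second probe repeated the order of the sunitinib arrays, with replicate 2 inside the control range. It read 5.33, 5.31 and 5.27 in control and 5.83, 5.31 and 5.92 in sunitinib, a difference of 0.39 (SE 0.16, limma adjusted p = 0.275 over 419 probes, of which 1.67% were called higher and 1.91% lower). The 2 probes measure the same RNA and are not replicates.

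With all arrays kept miR-150-5p was not called, and among the fits that left out 1 array it was called only without sunitinib replicate 2. The size of its difference depended on each of the sunitinib arrays. Without sunitinib replicate 2 the difference was 0.57 (SE 0.06, limma adjusted p = 0.014). In that fit 1 of 237 tested miRNAs (0.422%) was called higher, which was miR-150-5p itself. Without sunitinib replicate 1 it was 0.26 (limma adjusted p = 0.532) and without sunitinib replicate 3 it was 0.22 (limma adjusted p = 0.642). Nothing in the labels sets sunitinib replicate 2 apart, and it stayed in every value above. By position, sunitinib replicates 1 and 2 lay in the first row of the single slide, and all controls and sunitinib replicate 3 in the second. The 2 sunitinib arrays that shared the first row were those at 7.45 and 6.82. The first row held no control, so a fit with a term for slide row takes its difference from the second row alone. There, 1 sunitinib array stood against 3 controls, and the difference was 0.61, given with no test because it rests on that single sunitinib array.

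miR-155-5p, the activation-induced miRNA, had log2 levels of 6.57, 6.66 and 6.62 in control and of 6.80, 6.78 and 6.73 in sunitinib replicates 1 to 3. Every sunitinib array lay above every control array, by a margin that is small in absolute terms. The scaled linear signal was 95.6, 102.0 and 98.9 in control and 112, 111 and 106 in sunitinib. The means were 6.62 ± 0.045 and 6.77 ± 0.038 (SD, n = 3 each), a difference of 0.15 (SE 0.06, 95% interval 0.01 to 0.29) or a ratio of 1.11. The interval is for this miRNA alone, with no allowance for the number tested. The unadjusted limma p was 0.042, and the difference did not pass after adjustment over all tested miRNAs (limma adjusted p = 0.246), with 38 miRNAs at a smaller p. The exact two-sided permutation p was 0.1, the smallest this design allows. The SE of the spot mean was at most 0.04.

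The second probe of miR-155-5p read 4.50, 4.50 and 4.53 in control and 4.82, 4.65 and 4.62 in sunitinib, again with all sunitinib arrays above all controls. Its difference was 0.19 (SE 0.07, limma adjusted p = 0.263 over the 419 probes; groups did not overlap for 25.5% of these probes). Within the second slide row the difference of miR-155-5p was 0.11, from the single sunitinib array there. Leaving out any 1 array kept it between 0.13 and 0.17, and no such fit called it.

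miR-342-3p had log2 levels of 7.41, 7.49 and 7.43 in control and of 7.41, 7.42 and 7.48 in sunitinib replicates 1 to 3. The groups overlapped over nearly their whole range. The scaled linear signal was 171, 180 and 172 in control and 171, 172 and 179 in sunitinib. The means were 7.44 ± 0.041 and 7.44 ± 0.036 (SD, n = 3 each), with a difference of -0.0053 (SE 0.06, limma adjusted p = 0.971). The 95% interval of -0.15 to 0.14 holds ratios from 0.904 to 1.099, which bounds a change of miR-342-3p in either direction without showing that there was none. The second probe had 7.01, 7.07 and 6.99 in control and 6.92, 6.998 and 7.04 in sunitinib (difference -0.04, SE 0.06, limma adjusted p = 0.780). Of tested miRNAs, 4.64% had a smaller pooled within-group SD than miR-342-3p and 5.49% a smaller one than miR-155-5p, so both were among the most repeatable miRNAs on these arrays.

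The authors' deposited table of log2 values held 1 row for each of the 3 miRNAs. The groups did not overlap there for 2 of the 3, beside 25.7% of tested miRNAs. miR-150-5p had 6.21, 6.13 and 6.12 in control and 6.68, 6.05 and 6.72 in sunitinib there, again with sunitinib replicate 2 below every control. miR-155-5p had 5.55, 5.59 and 5.64 against 5.88, 5.74 and 5.73, higher on every sunitinib array, as for 13.9% of tested miRNAs. miR-342-3p differed from the scanner values. The deposited table gave it 7.29, 7.32 and 7.29 in control and 7.15, 7.20 and 7.18 in sunitinib, so every sunitinib array lay below every control, as for 11.8% of tested miRNAs in that table. Its difference there was -0.12 (SE 0.05, limma adjusted p = 0.281) and did not pass. With quantile normalization of the scanner values it was -0.08 (limma adjusted p = 0.434).

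**Figure D2:**
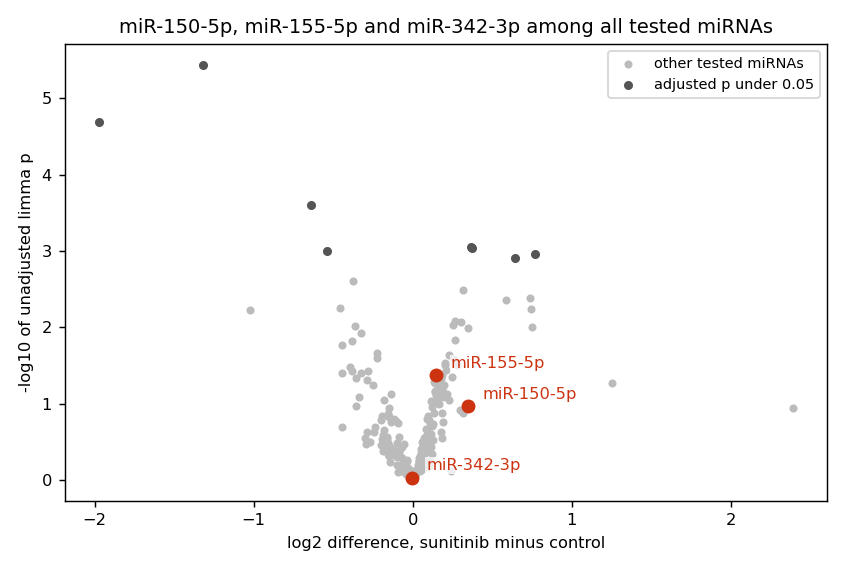
Each point is 1 of the 237 tested miRNAs, with the log2 difference (sunitinib minus control) on the x axis and -log10 of the unadjusted limma p on the y axis. Dark points passed an adjusted p of 0.05. The 3 lymphocyte miRNAs, in red, lie at 0.35, 0.15 and -0.0053 and are not among the 8 that passed.

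The 3 miRNAs did not share one pattern. Sunitinib array by array, miR-150-5p stood at 0.53, -0.09 and 0.61 relative to its control mean. miR-155-5p stood at 0.18, 0.16 and 0.11, and miR-342-3p at -0.03, -0.02 and 0.04. The difference of miR-150-5p exceeded that of miR-342-3p by 0.35, with overlapping groups. That of miR-155-5p exceeded the difference of miR-342-3p by 0.16, and here the ratio of both miRNAs was higher on all 3 sunitinib arrays than on any control. These differences between the 3 miRNAs are descriptions and were not tested.

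The tested miRNAs nearest in pattern were found as those with the smallest root mean square difference of centred log2 levels over the 6 arrays. For miR-150-5p these were miR-26a-5p (0.17), miR-340-3p (0.17) and miR-30d-5p (0.18), beside a median of 0.32 over all tested miRNAs. miR-340-3p read 3.93, 4.10 and 3.93 in control and 4.18, 3.75 and 4.24 in sunitinib, with replicate 2 lowest of all as for miR-150-5p. miR-26a-5p read 11.86, 11.87 and 11.77 in control and 12.13, 11.86 and 12.09 in sunitinib. For miR-155-5p they were miR-30a-5p (0.025), miR-30c-2-3p (0.026) and let-7d-5p (0.027), beside a median of 0.13. Those 3 had differences of 0.14, 0.15 and 0.13, which follows from how they were chosen, and none of them passed (limma adjusted p of 0.263, 0.265 and 0.263). For miR-342-3p they were miR-152-3p (0.018), miR-103-3p (0.026) and miR-499-5p (0.035), the last of which is encoded within the myosin gene Myh7b, beside a median of 0.13.

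The opposite arms of the 3 hairpins, miR-150-3p, miR-155-3p and miR-342-5p, which are usually discarded after the hairpin is cut, had 0 of 6 arrays on which any of their probes was detected well above background. They were therefore not tested. The share of usable spots well above background reached at most 14.3% for any probe of miR-342-5p and 0% for those of the other arms.

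The 3 further blood-cell miRNAs were set beside them. miR-223-3p, a miRNA of neutrophils and their precursors, fell by 1.32 on the log2 scale (SE 0.09, limma adjusted p = 0.00086), and miR-142a-3p, made by nearly all blood-forming cells, lymphocytes included, fell by 0.64 (SE 0.09, limma adjusted p = 0.020). Within the second slide row, from the single sunitinib array there, miR-223-3p and miR-142a-3p differed by -1.41 and -0.62, with no test. miR-142a-3p lost its call when any 1 control array was left out (limma adjusted p between 0.085 and 0.10). It was called in 13 of 22 alternative settings. Settings without its call included those without scaling (limma adjusted p = 0.065) and without a filter (limma adjusted p = 0.120). The 22 include a fit with a term for slide row, which rests on 1 sunitinib array. miR-451a of red blood cells had a difference of 0.19 (SE 0.16, limma adjusted p = 0.597). These 3 were chosen for comparison with earlier results of these data known. The ratio of each of the lymphocyte miRNAs to each of them was then compared between groups, which made 9 pairs.

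Relative to miR-223-3p, miR-150-5p was 3.18-fold higher in sunitinib than in control, miR-155-5p 2.77-fold and miR-342-3p 2.49-fold. Relative to miR-142a-3p the values were 1.98-fold, 1.73-fold and 1.55-fold. These 6 ratios largely carry the fall of miR-223-3p and miR-142a-3p, which was known when the pairs were chosen, and they share those 2 denominators, so they are given as a description with no test. The sunitinib arrays lay above the controls in each. For miR-150-5p this included sunitinib replicate 2, which stood 1.18 above the control mean of its log2 ratio to miR-223-3p and 0.68 above that to miR-142a-3p. Relative to miR-451a the 3 differences were 0.16, -0.04 and -0.19 with overlapping groups (exact permutation p of 0.6, 0.8 and 0.5), and the control arrays spread widely, from -0.28 to 0.31 around their mean for miR-150-5p.

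**Figure D3:**
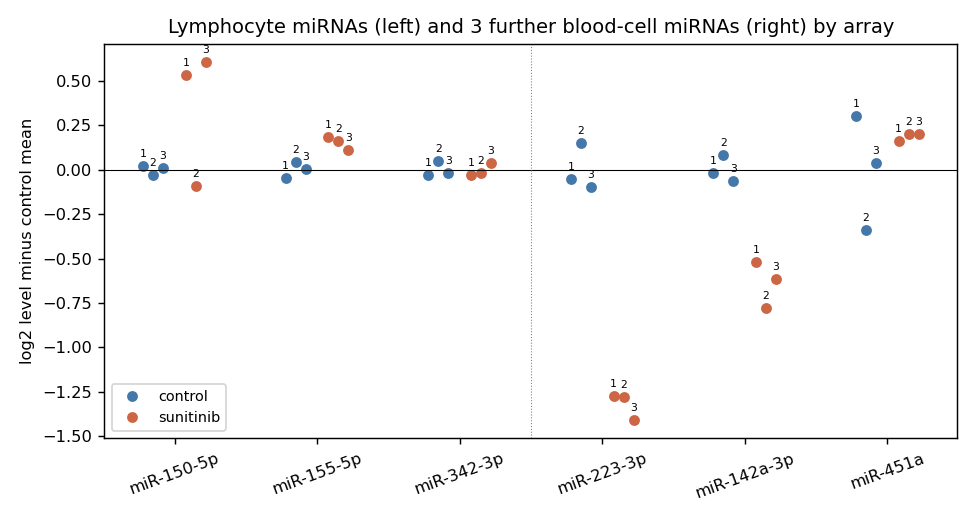
Log2 level minus the control mean (y axis) on each of the 6 arrays, control in blue and sunitinib in orange with replicate numbers, for the 3 lymphocyte miRNAs (left of the dotted line) and for 3 further blood-cell miRNAs (right). The sunitinib arrays of miR-223-3p and miR-142a-3p lie below all controls. Those of miR-155-5p lie above all controls, those of miR-342-3p and miR-451a overlap them, and miR-150-5p lies above them on replicates 1 and 3 and at -0.09 on replicate 2.

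Other miRNAs known from lymphocytes were given by a list of 14, of which 10 were tested. Of these 10, 0 passed as higher and 1, miR-142a-3p, as lower, beside 1.69% higher and 1.69% lower of all tested miRNAs. Above 0 were 3 of 10 differences, with a median of -0.04 (0.02 over all tested). At an unadjusted p under 0.05, 1 of the 10 was higher and 2 were lower, beside 10.5% and 8.44% of all tested miRNAs. The groups did not overlap for 1 that was higher, miR-92a-3p, and 3 that were lower, miR-142a-3p, miR-146a-5p and miR-181c-5p. Over all tested miRNAs the shares without overlap were 18.1% higher and 9.28% lower. The miR-181 family, which tunes antigen receptor signalling in T cells, had 4 members tested, with differences of -0.15 for miR-181a-5p, -0.05 for miR-181b-5p, -0.10 for miR-181c-5p and 0.01 for miR-181d-5p, none past the threshold. miR-92a-3p of the miR-17-92 cluster, which drives lymphocyte proliferation, had 0.30 (SE 0.08, limma adjusted p = 0.114) with groups that did not overlap. miR-146a-5p, a brake on NF-kB signalling in T cells and myeloid cells, had -1.02 (SE 0.25, limma adjusted p = 0.093). Values for miR-19b-3p, miR-16-5p and miR-29b-3p were -0.0020, -0.02 and 0.18. The other 4 (miR-146b-5p, miR-17-5p, miR-142a-5p and miR-191-5p) were not detected above background on any array.

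The labelled tissue matched its markers. All 6 heart and skeletal muscle miRNAs and both endothelial ones were well above background on every array, and 0 of 7 liver, brain and epithelial miRNAs were on any. Of 6 myeloid miRNAs 3 were tested. Of these, miR-223-3p and miR-142a-3p were called lower, beside 1.69% of all tested miRNAs. miR-142a-3p is on both the myeloid and the lymphocyte list, so its lower call is the same one counted above. The third, miR-511-3p, was detected in control and on no sunitinib array. It passed the filter through the control group alone, so its lower call is not counted with them. With a term for slide row only miR-223-3p of the 3 kept its call. The summed level of the 6 myeloid miRNAs includes miR-511-3p and is weighted to the brightest, miR-223-3p and miR-142a-3p, so it adds no further result. This summed level ran from 8.79 to 9.01 in control and from 7.72 to 7.84 in sunitinib on the log2 scale. That of the 4 erythroid miRNAs ran from 11.75 to 12.29 and from 12.14 to 12.22, with 0 of 4 past the threshold (3.38% of all tested miRNAs were) and 0 of 4 at an unadjusted limma p under 0.05. That of miR-150-5p, miR-155-5p and miR-342-3p together ran from 8.60 to 8.64 and from 8.62 to 8.87. Whether the share of leukocytes in the samples had a part in any of these values was not tested.

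**Figure D4:**
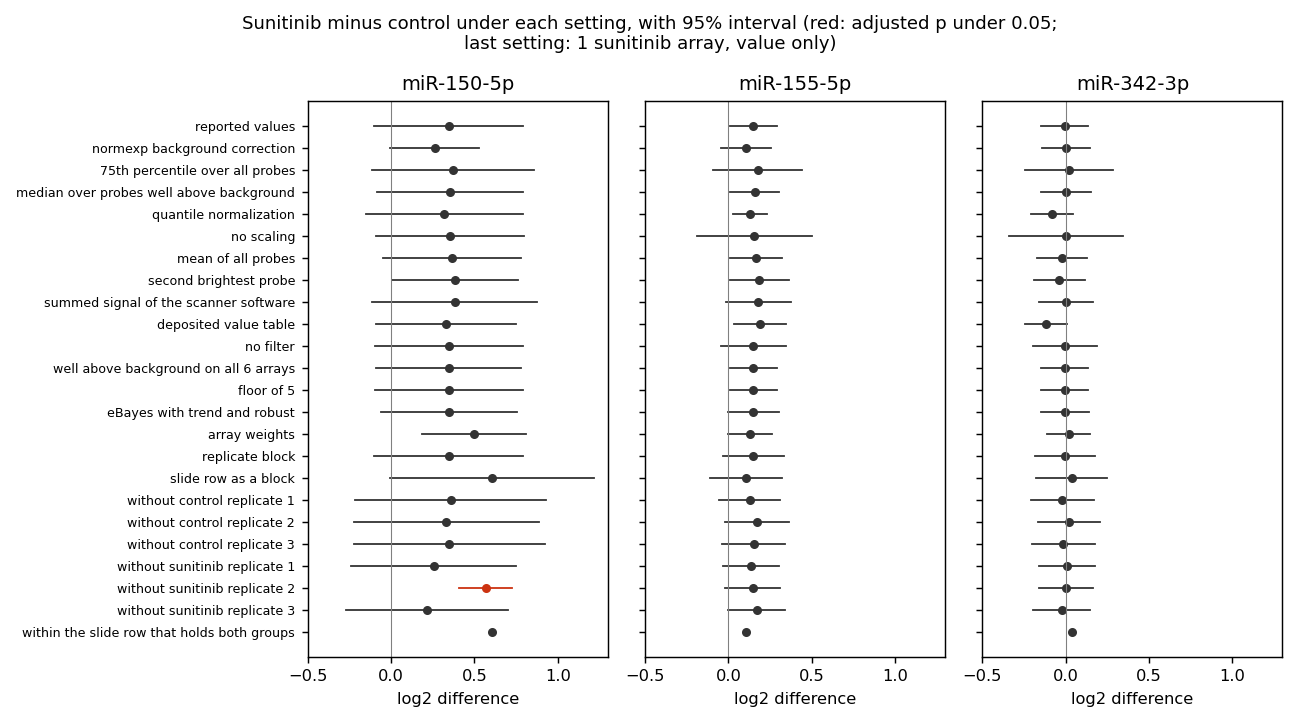
Log2 difference (x axis, sunitinib minus control) of each lymphocyte miRNA with its 95% interval from limma, for the reported values and for 23 other settings named on the y axis. The last setting, within 1 slide row, has a single sunitinib array and no interval. The setting with a term for slide row takes its difference from that same array. Red marks an adjusted p under 0.05, reached by miR-150-5p without sunitinib replicate 2 (0.57) and by neither of the others.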

How the data were processed

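The deposited scanner files give spot intensity that was background-subtracted by Agilent Feature Extraction, version 10.7 per the submitters' processing notes and 10.7.1.1 per the file headers, which name genome build mm9. The authors' deposited table gives 1 log2 value per miRNA and array; no source used here states its scale or centring. Its column medians were 2.196, 2.195 and 2.196 in control and 2.199, 2.200 and 2.196 in sunitinib, and it served as an alternative. Control and outlier spots were left out. Arrays were brought to a common 75th percentile, taken from the 393 probes detected on all 6 of them. Signals under 1 were then set to 1, and a probe's value is the mean log2 signal of its spots. A probe counted as well above background where at least 50% of its spots did, and the brightest probe stood for its miRNA. Groups were compared with limma 3.58.1 (R 4.3.3; lmFit and eBayes), and p-values were adjusted by Benjamini-Hochberg over all 237 tested miRNAs. The fit was tested on simulated data with independent noise for each miRNA and array. Those data held no effect of slide row or of a whole array, so that test cannot speak to either. The miRNAs, lists and comparisons were chosen with earlier results of these data known. Named miRNAs are the 3 lymphocyte miRNAs, those of the lists, and the 3 nearest in pattern to each. The labels do not say that replicate numbers pair the samples, and the reported values use no pairing. Arrays limit the precision by their number, 3 per group.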

Additional observations from a re-analysis of the deposited data

How the results depend on the processing

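Of 22 alternatives with a test, none called miR-155-5p or miR-342-3p and 1, without sunitinib replicate 2, called miR-150-5p. The 22 include the fit with a term for slide row, whose difference rests on 1 sunitinib array. Values within the slide row that holds both groups, a setting added after the data were seen, come from that array and repeat that fit. They have no test and were 0.61, 0.11 and 0.035 for miR-150-5p, miR-155-5p and miR-342-3p. miR-150-5p stayed above 0 in all 22 (0.22 to 0.61; 0.22 to 0.57 when 1 array was left out; limma adjusted p from 0.014 to 0.772), as did miR-155-5p (0.10 to 0.19; 0.13 to 0.17; limma adjusted p from 0.161 to 0.934). With array weights miR-150-5p had 0.50 (limma adjusted p = 0.078). miR-342-3p ran from -0.12 to 0.04 (limma adjusted p from 0.281 to 1.00) and turned above 0 in 10 of 22. It was 0.00042 with normexp background correction and 0.00092 without scaling. Scaling by the percentile of all probes gave 0.019 and by the median 0.0014. It was 0.0040 with the summed signal, 0.017 with array weights, and 0.035 with a term for slide row. Leaving out 1 array gave -0.026 to 0.018. The cause of its lower value in the deposited table (-0.12) was not tested.

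The 4 higher and 4 lower calls over all tested miRNAs became 2 and 2 with normexp and 1 and 1 with the summed signal. Higher calls were 0 with quantile normalization, 1 without scaling and 0 without a filter. Lower calls were 7 with the mean of all probes or with array weights. Leaving out 1 array, with scaling and filter kept, gave 0 to 5 higher and 2 to 3 lower. Calls with a term for slide row are not given, because that fit rests on 1 sunitinib array. Same-numbered samples deviated with correlations of 0.18, 0.22 and -0.06. These few values cannot show whether the numbers mark a shared litter, day or batch, and the labels do not say. With the replicate block 0 were called higher and 2 lower, miR-150-5p had 0.35 (limma adjusted p = 0.372), miR-155-5p 0.15 (limma adjusted p = 0.371) and miR-342-3p -0.0053 (limma adjusted p = 0.978).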
